A study of Mus musculus with 6 samples.

Results

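Nos2 encodes inducible nitric oxide synthase, and its expression was measured in mouse bone marrow-derived macrophages with and without bacterial lipopolysaccharide (LPS). The gene is represented here by 1 of the 74007 transcript rows of the deposited table, the row ENSMUST00000018610_at of an Ensembl transcript, found by its identifier and not by its values. The table at hand that lists gene symbols holds no Ensembl transcript identifiers, so the name Nos2 of this row was taken as given and not checked. The study comprised 6 Affymetrix Mouse Exon 1.0 ST arrays, 1 per culture. In the LPS group, 3 cultures of macrophages received LPS at 10 ng/mL on day 7 of culture and were harvested after 4 h. In the unstimulated group, 3 cultures received no stimulus. The cells of both groups came from femoral marrow of female C57BL/6J mice aged 8 to 12 weeks on normal chow, were grown with the macrophage growth factor M-CSF (recombinant human, 50 ng/mL) and were replated on day 6. The marrow of 3 animals was used, and the cells of every animal were divided between the groups. The gene has 3 RefSeq transcripts, and a single row cannot tell how the signal was divided among transcripts. The rows of the table carry no gene names, so the macrophage label was not checked against marker genes and no other gene of the nitric oxide pathway is described.

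Inducible nitric oxide synthase makes nitric oxide and citrulline from arginine, oxygen and NADPH, with haem, flavins and tetrahydrobiopterin as cofactors. The enzyme binds calmodulin so tightly that it is active at resting calcium, so in macrophages its output follows largely from how much of the protein is made. In mouse macrophages LPS acts on the receptor TLR4. Signals through the adaptor MyD88 activate NF-kB, and signals through the adaptor TRIF lead to interferon-beta, and both routes are known to act on transcription of Nos2. Nitric oxide from this enzyme is known for killing or restraining microbes inside the phagocyte and for inhibiting iron-sulphur enzymes of respiration.

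Nos2 was close to the bottom of the scale without LPS and among the brightest transcripts after 4 h of LPS. Its log2 expression was 12.31, 12.15 and 11.85 in LPS arrays 1, 2 and 3, against 7.10, 7.02 and 7.10 in unstimulated arrays 1, 2 and 3. All LPS arrays were high and all unstimulated arrays low, and the groups did not overlap. The mean was 12.10 ± 0.23 in LPS arrays and 7.07 ± 0.05 in unstimulated arrays (SD, n = 3 each). The lowest LPS array stood 4.75 above the highest unstimulated array on the log2 scale. In bulk RNA, more cells expressing Nos2 and more Nos2 RNA per cell cannot be told apart.

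**Figure D1:**
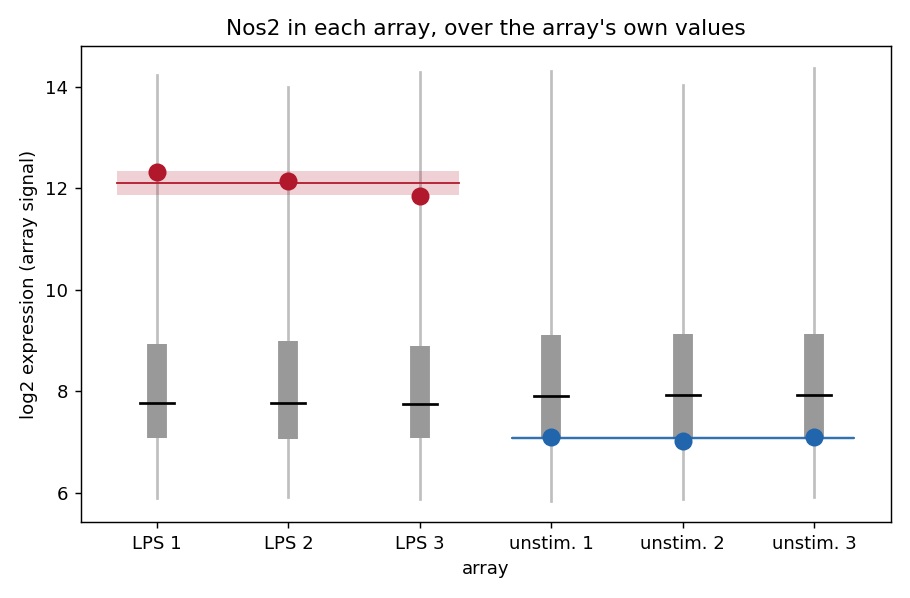
Each point is the log2 expression of Nos2 in 1 array, with 3 LPS arrays on the left and 3 unstimulated arrays on the right; coloured lines and bands are the group mean and SD. Grey lines run over all values of the array, grey boxes over its middle 50%, and black bars mark its median; Nos2 lies far above the box with LPS, at 11.85 to 12.31, and at the lower edge of the box without LPS, at 7.02 to 7.10.

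The difference between LPS and unstimulated arrays was 5.03 ± 0.12 on the log2 scale (SE), or 32.7-fold, with a 95% confidence interval from 26.9-fold to 39.6-fold (limma, Benjamini-Hochberg adjusted p = 3.04e-06 over all rows). Nos2 was thus called higher with LPS, as were 6472 transcripts or 8.75% of those tested. Calls in either direction made up 32.0%, with 17195 transcripts called lower, and with each array centred on its median the split was 23708 higher and 11887 lower. A call of at least 2-fold higher, which Nos2 also met, was reached by 2222 transcripts (3.00%). Groups that did not overlap, with every LPS array above every unstimulated array, were found for 14.9% of transcripts. An exact two-sided permutation test of the Nos2 values alone gave p = 0.1, the smallest that 3 against 3 arrays allow.

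When limma asked whether the change exceeded 2-fold, Nos2 passed with an adjusted p of 9.29e-06, as did 1.45% of transcripts in the upward direction. When it asked for more than 16-fold, Nos2 did not pass, with a limma adjusted p of 0.105, and 20 transcripts did. The 95% interval of the Nos2 fold, which carries no adjustment for the other transcripts, lay above 16-fold.

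The rise was present in the cells of each animal. Within same-numbered pairs, LPS minus unstimulated was 5.21 in pair 1, 5.13 in pair 2 and 4.75 in pair 3 on the log2 scale. As folds these were 37.0, 35.0 and 26.9. Among all transcripts ranked by their rise within the pair, Nos2 came 23rd in pair 1, 21st in pair 2 and 24th in pair 3. Its place was thus close to the same in all pairs, although the size of its rise was smallest in pair 3.

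Nos2 differed between groups by more than most transcripts did. Within pairs 1, 2 and 3, LPS minus unstimulated had an SD over all transcripts of 0.55, 0.54 and 0.55. The Nos2 differences in these pairs were 5.21, 5.13 and 4.75. Values ran from 5.84 to 14.4 over all arrays. Pearson's r across transcripts, which are not independent replicates, was 0.986 to 0.993 between arrays of a group and 0.910 to 0.926 between groups. Array medians were 7.75 to 7.77 in LPS arrays and 7.91 to 7.92 in unstimulated arrays, a shift of -0.15 with LPS. Relative to this shift the Nos2 difference was 5.18.

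Ranks within an array do not depend on how arrays were scaled against each other. Nos2 stood above 99.2%, 98.9% and 98.4% of the transcripts in LPS arrays 1, 2 and 3, against 26.0%, 23.8% and 26.0% of those in unstimulated arrays 1, 2 and 3. In LPS arrays between 626 and 1190 transcripts were brighter than Nos2, against 54732 to 56374 in unstimulated arrays. Nos2 thus crossed most of the distribution, starting near the lower quartile and ending near the top percentile. The brightness of a probe set is also a property of its probes, so these are ranks of array signal and not of transcript abundance.

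The unstimulated signal lay little above the dimmest transcripts. Nos2 was 5.61 to 6.07 above the 1st percentile of its own array in LPS arrays, against 0.78 to 0.88 in unstimulated arrays, on the log2 scale. No detection call was used here, so the unstimulated cells cannot be said to lack or to contain Nos2 RNA. With a background equal to the array's 1st percentile removed before the logarithm, a setting chosen after the data were seen, the difference was 6.18, or 72.6-fold with an interval from 57.1-fold to 92.2-fold (limma adjusted p = 2.60e-05). The fold of Nos2 therefore holds only for the scale on which it is given, and the 32.7-fold is that of the deposited values.

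Most transcripts with the same starting signal stayed where they were. Without LPS, 5462 other transcripts had a mean within 0.1 of that of Nos2 on the log2 scale. With LPS their median was 7.10, with quartiles of 7.02 and 7.17, while Nos2 averaged 12.10. Of these transcripts 295 (5.40%) were called higher, 79 (1.45%) by at least 2-fold and 7 by at least 16-fold. Over all 74007 transcripts, 8.75% were called higher, 3.00% by at least 2-fold and 78 transcripts by at least 16-fold. In 3 of them the rise was at least as large as that of Nos2. Transcripts of the same gene can share probes, so these rows are not all separate measurements, and other transcripts of Nos2 may be among them.

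**Figure D2:**
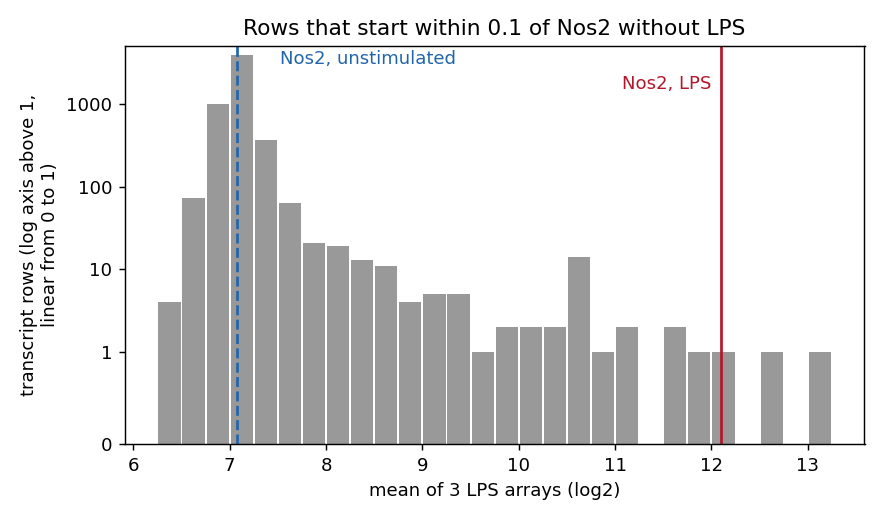
The bars count the 5462 transcripts whose unstimulated mean lay within 0.1 of that of Nos2, by their mean in the 3 LPS arrays (log2, bins of 0.25; the count axis is logarithmic above 1). The dashed line marks Nos2 without LPS at 7.07 and the solid line Nos2 with LPS at 12.10; most transcripts stayed near the dashed line, and 3 rose at least as far as Nos2.

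Transcripts that were as bright as Nos2 with LPS had mostly been bright before. With LPS, 277 other transcripts had a mean within 0.1 of that of Nos2. Their unstimulated means had a median of 12.07, with quartiles of 11.26 and 12.28, against 7.07 for Nos2. Of these transcripts 62 (22.4%) were called at least 2-fold higher, against 3.00% of all transcripts, and 2 started at or below the unstimulated level of Nos2. They were chosen by their level with LPS, which favours rises, so the shares are not alike.

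**Figure D3:**
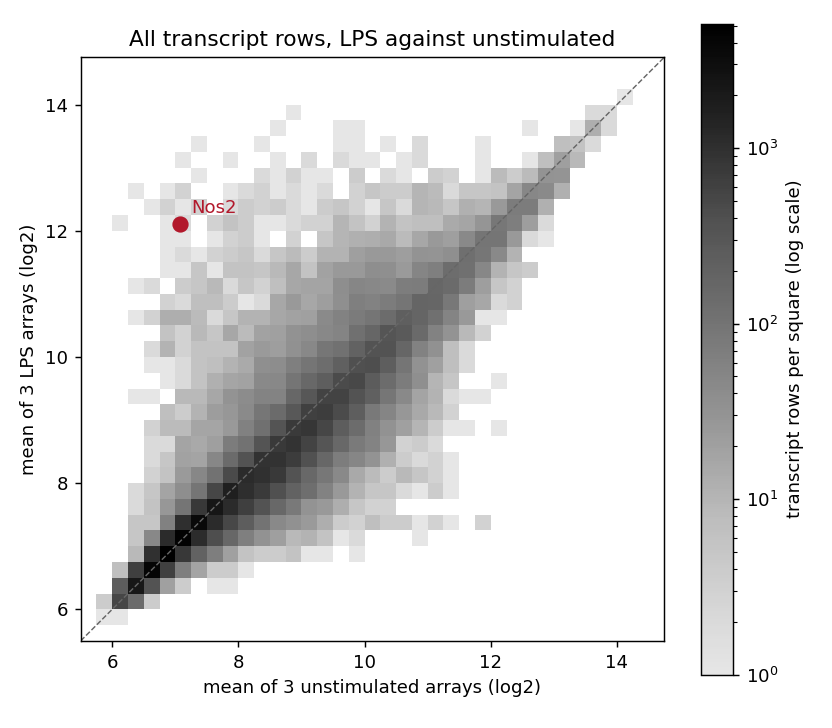
Each square counts transcripts by their mean in the 3 unstimulated arrays (horizontal, log2) and in the 3 LPS arrays (vertical, log2), darker for more transcripts on a log scale; the dashed line marks equal values. Nos2, the red point at 7.07 and 12.10, lies in the sparse upper left region, away from the diagonal.

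By size of rise Nos2 was 23rd of 74007 transcripts, and 0.0311% of them rose by at least as much. The largest rise of any transcript was 6.20 on the log2 scale, and rises of at least 2-fold, found for 2222 transcripts, had a median of 1.57 and a 95th percentile of 3.78. The neighbours of Nos2 in this order had rises of 5.08 and 5.02, and 7 transcripts had a rise within 1 SE of that of Nos2. The order among these transcripts is thus within the error of Nos2, and its rank lay between 19 and 26 over 16 alternative settings. No other row shared all 6 values with Nos2.

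Nos2 varied more between LPS arrays than between unstimulated arrays. Its highest and lowest LPS arrays differed by 0.46 on the log2 scale, against 0.08 in unstimulated arrays. Its SD of 0.23 with LPS was above that of 85.0% of the 1370 transcripts within 0.5 of its LPS level, whose median SD was 0.14. Its SD of 0.05 without LPS was above that of 46.4% of the 25620 transcripts within 0.5 of its unstimulated level, whose median SD was also 0.05. For its level Nos2 thus had a high SD with LPS and an ordinary one without. The transcripts compared were chosen by level and not by rise, and each SD rests on 3 arrays. ENSMUST00000054002_at, the transcript most like Nos2 as described below, had SDs of 0.26 with LPS and 0.04 without. It was chosen for its likeness to Nos2 over these same arrays, so similar SDs follow largely from that choice.

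Among the LPS arrays, array 3 lay farthest from the Nos2 mean. Nos2 deviated from its LPS mean by 0.21 in array 1, 0.04 in array 2 and -0.25 in array 3. LPS array 3 was the lowest LPS array for 1310 of the 2222 transcripts raised at least 2-fold (59.0%), with a median deviation of -0.10. For rises of at least 16-fold it was the lowest for 40 of 78 transcripts, with a median deviation of -0.06, and over all transcripts its median deviation was -0.0073. Array 1 was the lowest for 28.2% of the 2222 transcripts and array 2 for 12.9%. In the 78 transcripts, array 1 was the lowest for 24 and array 2 for 14. The matching shares over all transcripts were not counted, so these counts do not set raised transcripts apart from the others. The part of array 3 as a whole in the Nos2 value was not tested. Without LPS array 3 the Nos2 difference was 5.16 (limma adjusted p = 6.13e-06).

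The transcripts whose pattern was most like that of Nos2 were found by the distance between log2 values over the 6 arrays, after each transcript's own mean was subtracted. The closest was ENSMUST00000054002_at, at a distance of 0.17. Its log2 expression was 12.15, 11.98 and 11.65 in LPS arrays 1, 2 and 3, against 7.03, 6.99 and 7.06 in unstimulated arrays 1, 2 and 3. Like Nos2 it was lowest in array 3 of the LPS group, and its groups did not overlap, as held for 14.9% of all transcripts. Both traits follow largely from its choice by distance.

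The second closest was ENSMUST00000066532_at, at a distance of 0.24. It was at 12.25, 12.16 and 11.99 in LPS arrays 1, 2 and 3, against 6.97, 6.88 and 7.16 in unstimulated arrays 1, 2 and 3. It shared with Nos2 the order of the LPS arrays, and its unstimulated arrays were more spread. That order was found for 764 (34.4%) of the 2222 transcripts raised at least 2-fold, and its share over all transcripts was not counted. Since the likeness was chosen on these 6 arrays, it is a description, and the files pair neither identifier with a gene. Within a distance of 1 lay 41 transcripts.

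**Figure D4:**
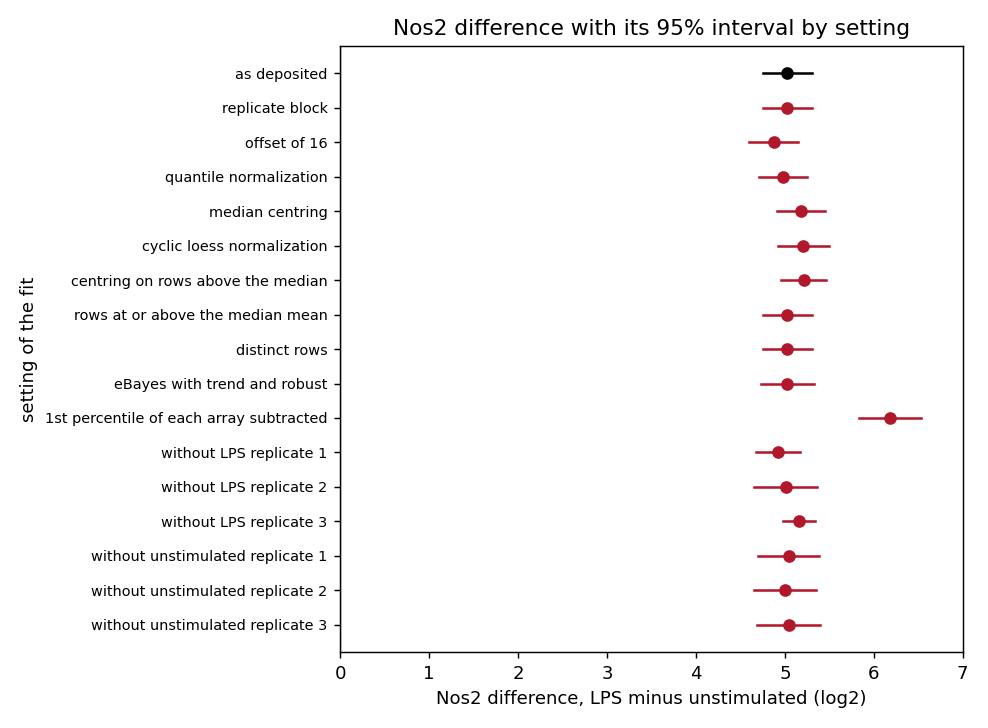
Points are the Nos2 difference, LPS minus unstimulated (log2), with its 95% confidence interval, for the deposited values in black and for 16 alternative settings in red. The differences lie between 4.87 with an offset of 16 and 5.21 with centring on rows above the median, apart from 6.18 with each array's 1st percentile removed as background.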

How the data were processed

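Total RNA of 6 cultures was hybridised to 1 exon array each. The authors summarised the probes of each transcript and deposited the result on a log2 scale, per the series text. PLIER and Affymetrix Power Tools are named in the submitters' processing notes. Not given in the sources used here are their versions, the probe-set annotation, the genome build and any offset or normalization between arrays. Of the 74007 transcript identifiers, 0 matched the RefSeq gene table, so lists by gene symbol were not used. No promoter or protein sequence of Nos2 was at hand, so none is printed.

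Groups came from the sample titles. All rows and arrays entered a two-sided limma fit of the deposited log2 values (version 3.58.1, R 4.3.3, lmFit and eBayes). The fit had no term for the animal, and the replicate number as a block was an alternative. Benjamini-Hochberg adjusted p-values were read at a threshold of 0.05. Differences are LPS minus unstimulated. The script was tested on simulated data. Same-numbered arrays come from the same animal, per the series text, and their deviations from the group means correlated at 0.50, 0.30 and 0.12 across transcripts. LPS array 3 correlated more closely, at 0.21, with array 2 of the unstimulated group. The number of arrays limits the precision. Percentiles are the percent of rows of an array with a lower value. The named transcripts are Nos2 and the 2 rows nearest to it in mean-centred log2 values. Nos2, the tests and the alternatives were chosen with earlier results of these data known. Figures were drawn with matplotlib 3.10.9.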

Additional observations from a re-analysis of the deposited data

How the results depend on the processing

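Nos2 was called higher with LPS in 17 of 18 alternatives, with differences from 4.87 to 6.18. The exception was the test against 16-fold, in which the difference of 5.03 had a limma adjusted p of 0.105. Both that test and the removal of the 1st percentile were chosen after seeing the data. Leaving out any 1 array gave Nos2 differences from 4.93 to 5.16, with limma adjusted p-values of at most 1.08e-04. With the replicate number as a block the difference was 5.03 (limma adjusted p = 1.01e-04), and no call of Nos2 changed. Counting rows with identical values once moved the mean percentile of Nos2, 98.8 in LPS arrays and 25.3 in unstimulated arrays, by less than its SD between arrays. By Pearson's r in place of the distance, 1 of the 2 most similar transcripts was the same.

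Counts over all transcripts depended on scaling, and the cause was not tested. Against 23667 calls, 6472 higher and 17195 lower, quantile normalization gave 9768 higher. Cyclic loess gave 10499 higher and 11053 lower. Median centring gave 35595 calls with 23708 higher, and centring on rows above the median gave 35998 with 25171 higher and 10827 lower. Without a detection level the unstimulated signal limits what the fold of Nos2 means.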
